A study of Mus musculus with 4 samples.

Results

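The 10 genes described here are regulators and markers of the epithelial-mesenchymal transition (EMT): the epithelial adhesion genes *Cdh1* and *Epcam*, the mesenchymal markers *Cdh2*, *Vim* and *Fn1*, and the transcription factors *Snai1*, *Snai2*, *Zeb1*, *Zeb2* and *Twist1*. They were chosen by name, and all 10 were found by symbol among the 28250 genes of the deposited tables. The RNA came from TBV2 cells, a feeder-dependent mouse embryonic stem cell (ESC) line of 129/SvP origin. Libraries were made after 24 h with solvent (n = 2) or with 5 µM MS-275 (entinostat, an inhibitor of class I histone deacetylases; n = 2), with LIF present in both groups. Per the labels the line was maintained on a feeder layer and also grown on gelatin-coated plates, and no source says whether feeder fibroblasts were present in the cultures taken for RNA. No source says that the 2 libraries of a group came from separate cultures, and the p-values measure only the spread between these libraries.

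In EMT, polarised cells that adhere through E-cadherin lose their junctions and take on a migratory, mesenchymal state. Factors of the Snail, Zeb and Twist families act on E-box sequences and repress epithelial genes such as *Cdh1*, and Snail and Zeb proteins do so together with corepressors that include histone deacetylases. Mouse ESC grow as compact colonies held together by E-cadherin, and a transition of this kind takes place in the embryo at the primitive streak and again in the neural crest.

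The deposited expression values sum to between 2490 and 4359 per library, in a unit whose formula is not given in the sources used here. The alignments came to between 9785619 and 23467935 per library. Each start position and strand was also counted 1 time as a distinct position, and between 5608253 and 7346036 distinct positions per library lay on exons of a single gene. Levels on the positions scale are distinct positions per kb of exon and per 1000000 such exon positions of the library, written PKM. The alignments deposited with replicate 1 of each condition hold 53.2% and 54.4% repeats of a position, and those of replicate 2 hold none. Over the 10 genes, the MS-275 over solvent ratios of the alignments deposited with replicate 1, repeats included, differed from those of the replicate 2 values by a median of 0.02 on the log2 scale, and from those of the replicate 1 values by 0.57. The distinct positions of replicate 2 differed from the values of replicate 1 by a median of 0.02 and from those of replicate 2 by 0.51. The alignments therefore match the values under the opposite replicate number within each condition, and the replicate numbers of positions below are those of the deposited alignments. The split into solvent and MS-275 is the same either way.

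To ask what MS-275 did to these genes, the 2 treated libraries were compared with the 2 solvent libraries. *Snai1* and *Snai2* were higher after MS-275 in both pairs of libraries, by 15.4-fold and 5.4-fold of the mean value, while the values of the epithelial adhesion genes overlapped between the groups (those of *Cdh1* not on the positions scale). *Fn1* was lower in both MS-275 libraries than in both solvent libraries. In bulk RNA a difference in the share of cells that carry a transcript and a difference in its amount per cell cannot be told apart. In the fit without the replicate number, limma on log2(value + 0.005), 0 of the 10 genes were called higher and 0 lower at a Benjamini-Hochberg adjusted p under 0.05, among 20336 genes of which 0.00492% were called higher and 0% lower. Before adjustment limma put 2974 higher and 564 lower genes of the whole table past 0.05, with *Snai1* and *Snai2* among the higher ones and none of the 10 among the lower. With the replicate number as a block, limma called 2 of the 10 higher, *Snai1* and *Snai2*, and 0 lower, against 21% of all genes called higher and 6.46% called lower. Limma-voom on distinct positions, without the block, called the same 2 higher and *Fn1* lower, where 15.2% of 16947 genes were called higher and 5.1% lower. On the value scale the median change over every tested gene was 0.197 (log2), so a gene at 0 sits slightly below the bulk of genes.

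**Figure D1:**
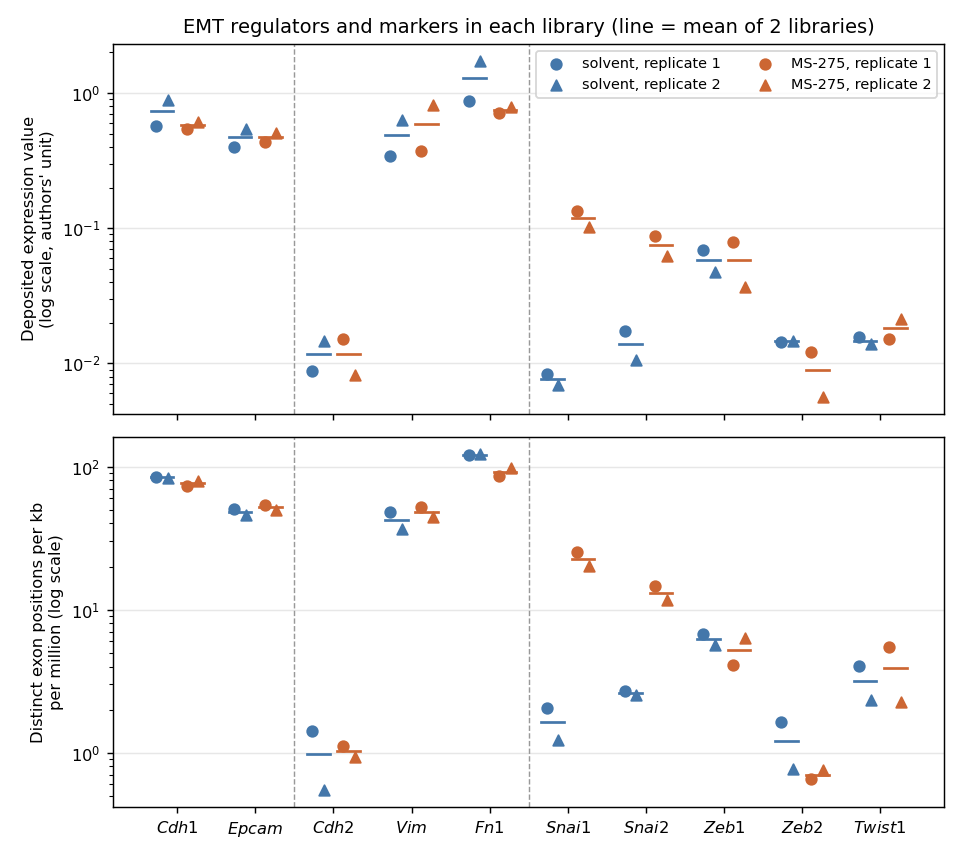
Deposited values (upper panel) and distinct exon positions in PKM (lower panel), both on log scales, for the 10 genes in each of the 4 libraries, with circles for replicate 1, triangles for replicate 2 and a line at each group mean. On both scales the MS-275 points of Snai1 and Snai2 lie above every solvent point, and those of Fn1 lie below.

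*Cdh1* encodes E-cadherin, the adhesion molecule of adherens junctions (chr8:109127251-109194146, mm9, plus strand). Its value was 0.573 and 0.887 in the solvent libraries and 0.545 and 0.608 in the MS-275 libraries, so the groups overlapped. Its log2 fold change was -0.31 (SE 0.572), with a limma adjusted p of 0.887, or 0.432 with the block. On the positions scale the groups did not overlap, with 84.5 and 83.6 PKM in solvent and 73.3 and 79.5 in MS-275 (means 84.0 ± 0.604 and 76.4 ± 4.39, SD, n = 2), but the log2 fold change of -0.13 had a limma-voom adjusted p of 0.47. *Cdh1* thus stood at or above the 95.1th percentile of all listed genes in every library. Between 20.6% and 29.2% of the start positions on its exons were filled, so distinct positions can understate its change. Corrected for filled positions, the log2 change was -0.28 in pair 1 and -0.06 in pair 2 of the alignments, against -0.2 and -0.07 uncorrected. With repeats included, which only the replicate 1 alignments hold, the MS-275 over solvent ratio was 0.682 (log2 -0.55). This ratio was not tested. It is not a measure separate from the pair 2 values (ratio 0.685), which these alignments matched.

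*Epcam* encodes an epithelial cell adhesion molecule that ESC also carry (chr17:88035319-88050446, mm9, plus strand). Its value was 0.40 and 0.543 in solvent and 0.433 and 0.509 in MS-275, and the MS-275 values lay inside the solvent range. The log2 fold change was 0.01 (SE 0.479, limma adjusted p = 0.997), and it turned to -0.27 under median-ratio scaling. On the positions scale it was 0.10 (SE 0.161).

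RefSeq promoter sequences on GRCm38.p6, from 250 bases before to 50 bases after the annotated start, were at hand for 5 of the 10 genes, *Epcam*, *Vim*, *Snai1*, *Twist1* and *Zeb2*, the last with 4 starts. They were searched for the E-box forms CAGGTG and CACCTG, which are the same site read on opposite strands and are the form that Snail and Zeb proteins are known to bind. *Epcam* held 2 and *Snai1* held 1, and the promoters of the other genes held none. Of 32851 mouse promoters of this length, 20.2% held at least 1 such site and 2.88% at least 2. The promoters of *Epcam* (chr17:87635729-87636028, plus strand) and *Snai1* (chr2:167537945-167538244, plus strand) are shown for the position of these letters, with the E-boxes in capitals.
Epcam promoter: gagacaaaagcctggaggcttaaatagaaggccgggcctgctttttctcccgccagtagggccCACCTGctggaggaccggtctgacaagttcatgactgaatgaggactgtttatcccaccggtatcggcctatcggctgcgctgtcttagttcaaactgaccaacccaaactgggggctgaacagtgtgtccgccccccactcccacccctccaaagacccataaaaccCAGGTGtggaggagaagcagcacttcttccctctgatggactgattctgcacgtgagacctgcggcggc
Snai1 promoter: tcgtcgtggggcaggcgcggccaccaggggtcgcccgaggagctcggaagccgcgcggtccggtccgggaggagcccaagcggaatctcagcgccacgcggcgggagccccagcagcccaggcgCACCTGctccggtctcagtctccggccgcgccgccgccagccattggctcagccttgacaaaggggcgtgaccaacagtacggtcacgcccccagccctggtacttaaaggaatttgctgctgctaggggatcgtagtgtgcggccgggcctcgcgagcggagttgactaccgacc
Counted from the annotated start, the boxes begin at -187 and -19 in *Epcam* and at -126 in *Snai1*. The value of *Epcam* did not differ beyond its spread, and that of *Snai1* rose, as given below. A match to these letters is a description and no evidence of binding.

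*Cdh2* encodes N-cadherin, the mesenchymal and neural cadherin. Its value was 0.00872 and 0.0148 in solvent and 0.0153 and 0.00821 in MS-275, with a log2 fold change of -0.01 (SE 0.554, limma adjusted p = 0.997). It went up in pair 1 (0.56) and down in pair 2 (-0.58), and the direction over both pairs was positive on the positions scale (0.18). It rested on 79 and 29 distinct positions in solvent and 50 and 55 in MS-275, so only a large change could have been seen. The log2 ratio of *Cdh2* to *Cdh1* within a library was -5.40 and -5.50 in solvent and -4.76 and -5.54 in MS-275. The group difference of 0.30 was smaller than the spread of the MS-275 libraries (SD 0.546), with p = 1 by a two-sided exact permutation test, for which 2 against 2 libraries cannot give less than 0.333. On the quantile-normalized scale that difference was -0.36. N-cadherin transcripts stayed far below E-cadherin transcripts in every library, and no switch between the cadherins was detectable.

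*Vim* encodes vimentin, the intermediate filament protein of mesenchymal cells (chr2:13495554-13504453, mm9, plus strand). Its value was 0.345 and 0.630 in solvent and 0.370 and 0.811 in MS-275, and the 2 replicate numbers differed more than the 2 groups did. The log2 fold change was 0.23 (SE 0.583), with a limma adjusted p of 0.924, or 0.531 with the block, and it was -0.05 under median-ratio scaling. The log2 ratio of *Vim* to *Epcam* was -0.21 and 0.21 in solvent and -0.22 and 0.67 in MS-275, a difference of 0.22 with p = 1 by the exact permutation test. On the positions scale *Vim* and *Epcam* lay close together, at 42.5 ± 7.84 and 48.2 ± 3.02 PKM in solvent and 48.2 ± 5.59 and 51.9 ± 3.21 in MS-275 (SD, n = 2).

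*Fn1* encodes fibronectin, a matrix glycoprotein that mesenchymal cells secrete and that ESC and feeder cells also make (chr1:71632094-71699774, mm9, minus strand). Its value was 0.872 and 1.73 in solvent and 0.709 and 0.794 in MS-275. Both MS-275 libraries were below both solvent libraries, and the fall was larger in pair 2 (ratio 0.459) than in pair 1 (ratio 0.813). The pair 2 values matched alignments with repeats and the pair 1 values matched distinct positions. A difference between replicates and one of counting therefore cannot be told apart here. The log2 fold change was -0.71 (SE 0.760), with a limma adjusted p of 0.754, or 0.114 with the block. With the block and median-ratio scaling the adjusted p was 0.0176 (16.4% of all genes called higher and 13.8% lower), and with the block and quantile normalization 0.0152 (14.4% and 14.6%). Distinct positions on its exons numbered 6944 and 6677 in solvent and 4031 and 6026 in MS-275, and the log2 fold change of -0.39 passed limma-voom (adjusted p = 0.0386, or 0.000746 with the block, where 29.9% of all genes were called higher and 13.9% lower). Of the 16688 start positions on its exons, between 24.2% and 41.6% were filled, in each library the largest share among the 10 genes, so distinct positions understate its change. With a correction for filled positions, chosen after seeing the data, the log2 change was -0.66 and -0.35 in the 2 pairs of alignments. With repeats included, which the replicate 1 alignments hold, it went from 1280 to 518 per 1000000 alignments, a ratio of 0.406. These alignments matched the replicate 2 values, so this ratio is not a measure separate from the pair 2 ratio of 0.459. Per 1000000 alignments of replicate 1, the ratio was 0.385 for *Zeb2*, 0.606 for *Zeb1*, 0.682 for *Cdh1*, 0.886 for *Cdh2* and 0.947 for *Epcam*. The ratio was 1.28 for *Vim*, 1.53 for *Twist1*, 5.98 for *Snai2* and 15.2 for *Snai1*.

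**Figure D2:**
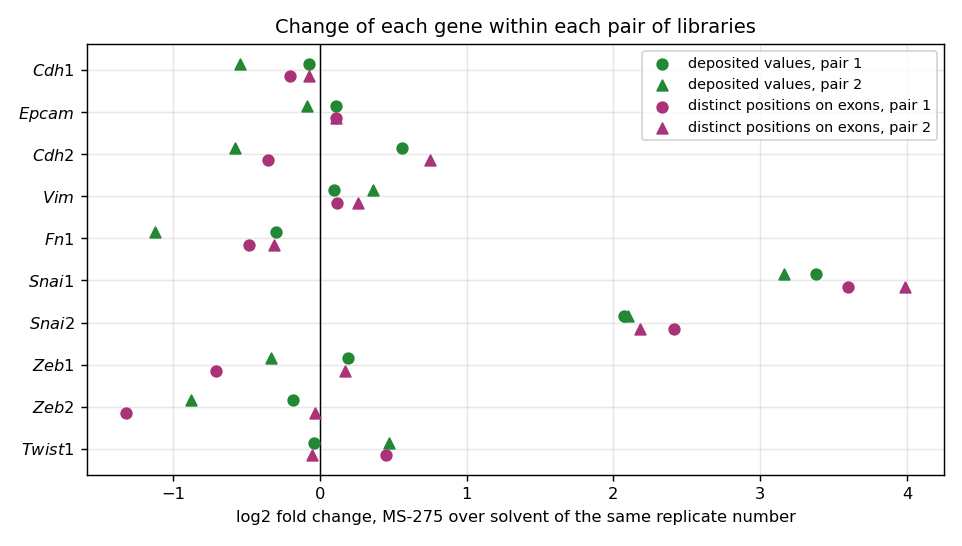
Log2 fold change of MS-275 over solvent within each pair of libraries that share a replicate number, from deposited values (log2 of value + 0.005, green) and from distinct positions per library depth (0.5 added, purple), with circles for pair 1 and triangles for pair 2. Snai1 and Snai2 lie above 2 in all 4 measures, and Fn1, Cdh1 and Zeb2 lie below 0 in all 4. Cdh2, Zeb1, Epcam and Twist1 lie on both sides.

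*Snai1* encodes Snail, a zinc finger repressor of *Cdh1* (chr2:167363695-167368314, mm9, plus strand). Its value was 0.00836 and 0.00697 in solvent and 0.134 and 0.102 in MS-275, so both MS-275 libraries stood far above both solvent libraries. In solvent it had the lowest mean value of the 10 genes, 0.00766 ± 0.000983, and in MS-275 the fifth highest, 0.118 ± 0.0226 (SD, n = 2). The log2 fold change was 3.27 (SE 0.582), with a limma adjusted p of 0.0581, or 2.37e-06 with the block, and it was 3.38 and 3.16 in the 2 pairs. The fit without the block called it once solvent replicate 1 was left out (0.787% of all genes called higher, 0.143% lower) or solvent replicate 2 (0.374% and 0.123%), and over genes with a mean value of at least 0.01 (3.16% and 0.441%). With MS-275 replicate 1 or 2 left out it did not (limma adjusted p = 0.223 and 0.15), and in each of these fits the lone library is assumed to vary like the 2 of the other group. Distinct positions on its exons numbered 23 and 13 in solvent and 231 and 239 in MS-275 (log2 fold change 3.78, SE 0.421, limma-voom adjusted p = 0.00499). Positions in its introns also went up in both pairs, from 14 to 65 and from 5 to 26. Its rank among all listed genes moved from the 48.6th and 51.1th percentile in solvent to the 76.0th and 75.6th in MS-275.

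*Snai2* encodes Slug, the other Snail-family factor that is active in EMT (chr16:14705945-14709488, mm9, plus strand). Its value was 0.0173 and 0.0106 in solvent and 0.0882 and 0.0620 in MS-275, and the groups did not overlap. The log2 fold change was 2.09 (SE 0.600), with a limma adjusted p of 0.111, or 9.11e-05 with the block, and it was 2.07 and 2.10 in the 2 pairs. Distinct positions numbered 38 and 34 in solvent and 166 and 174 in MS-275 (log2 fold change 2.29, SE 0.329, limma-voom adjusted p = 0.00644). At 13.1 ± 2.06 PKM in MS-275 (SD, n = 2), it was below *Snai1* at 22.7 ± 3.78, whereas in solvent it was above, at 2.63 ± 0.116 against 1.64 ± 0.591, and the libraries of the 2 genes did not overlap in either group. Both genes kept the call under every blocked alternative except the one without a filter on low values, which called 0 of 28250 genes and gave each an adjusted p of 0.259.

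*Zeb1* encodes a zinc finger homeodomain repressor of epithelial genes. Its value was 0.0689 and 0.0472 in solvent and 0.0795 and 0.0367 in MS-275, and the solvent values lay inside the MS-275 range. Over both pairs the log2 fold change was -0.07 (SE 0.553, limma adjusted p = 0.984), with 0.19 in pair 1 and -0.33 in pair 2. In solvent it had the highest level of the 5 transcription factors on the positions scale, 6.21 ± 0.791 PKM, and in MS-275 it was at 5.24 ± 1.57 (SD, n = 2), below *Snai1* and *Snai2*.

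*Zeb2* encodes the related factor that is also known for its part in neural crest and neural development (chr2:44839154-44972915, mm9, minus strand). Its value was 0.0145 and 0.0147 in solvent and 0.0122 and 0.00567 in MS-275. The groups did not overlap, but the change was small in pair 1 (log2 -0.18) and larger in pair 2 (-0.88). Over both pairs the log2 fold change was -0.53 (SE 0.542), with a limma adjusted p of 0.735, or 0.220 with the block. It passed with the block on the quantile-normalized scale (adjusted p = 0.0162) and on distinct positions (adjusted p = 0.0338), the latter from 173 and 78 positions in solvent and 56 and 85 in MS-275, of which replicate 1 of solvent alone stood apart. Annotated genes overlap *Zeb1*, *Zeb2*, *Cdh2* and *Fn1*, and counting did not use strand. In *Fn1*, 8052 of 8344 exon bases belong to that gene alone, and distinct positions on them numbered 6757 and 6556 in solvent and 3912 and 5902 in MS-275.

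*Twist1* encodes a basic helix-loop-helix factor of mesoderm and neural crest (chr12:34642536-34644682, mm9, plus strand). Its value was 0.0157 and 0.0139 in solvent and 0.0152 and 0.0212 in MS-275, with a log2 fold change of 0.22 (SE 0.595, limma adjusted p = 0.932) that was -0.29 on the quantile-normalized scale. It rested on between 25 and 50 distinct positions per library. Thus, of the 5 factors, the Snail-family pair rose, and for *Zeb1*, *Zeb2* and *Twist1* no rise was detected on either scale.

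Levels were ordered per length, in PKM. In solvent the order was *Fn1* (121), *Cdh1* (84.0), *Epcam* (48.2), *Vim* (42.5), *Zeb1* (6.21), *Twist1* (3.19), *Snai2*, *Snai1*, *Zeb2* and *Cdh2* (0.982). The libraries overlapped between the neighbours *Epcam* and *Vim*, *Twist1* and *Snai2*, *Snai1* and *Zeb2*, and *Zeb2* and *Cdh2*. In MS-275 the first 4 kept their order, *Snai1* and *Snai2* took the next places, and *Zeb1*, *Twist1*, *Cdh2* and *Zeb2* followed. There the libraries overlapped between *Epcam* and *Vim* and between *Zeb1* and *Twist1*. PKM divides by all annotated exon blocks, also those with few positions. Blocks 1 and 2 of *Cdh2*, 912 and 3223 of 8066 exon bases, held 2 and 5 of 79 positions in solvent replicate 1. The places of the lowest genes thus depend on the annotation and the scale. By mean solvent value, *Zeb2* (0.0146) and *Cdh2* (0.0117) stood above *Snai1* (0.00766).

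The genes closest to *Snai1* and *Fn1* in pattern were found over 20336 genes by the root mean square difference of centred log2(value + 0.005) over the 4 libraries. Those nearest to *Snai1* were *Popdc3*, *Nedd9* and *Bex6*, at 0.0855, 0.102 and 0.132. Those nearest to *Fn1* were *Mcm6*, *Abce1* and *Slc38a2*, at 0.0271, 0.0511 and 0.0523. Like *Fn1*, these 3 had their highest value in replicate 2 of solvent, between 1.45 and 1.56, and none passed with the block (limma adjusted p between 0.0606 and 0.121). With 4 libraries, such likeness is a description only.

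Fibronectin pre-mRNA is known to be spliced in alternative ways, at an exon called EDB, at one called EDA and at a variable region, and the inclusion of EDB and EDA is a textbook feature of embryonic and mesenchymal fibronectin. Of the 46 exon blocks of *Fn1* in the annotation, exon 25 (chr1:71660337-71660609, mm9, 273 bases) is absent from 2 of 3 annotated transcripts and exon 33 (chr1:71650234-71650503, 270 bases) from 1 of 3. Their splice sites are shown because the introns around them were among the 6 with most of the intron signal described next. Exon bases are in capitals, and the strand is minus.
Fn1 exon 25 acceptor: tttgcttcgtaactcaatagAGGTGCCCCA
Fn1 exon 25 donor: CAGCAAACGGgtgaatcttgaagtcttctg
Fn1 exon 33 acceptor: accattaatttgcctaacagACATTGATCG
Fn1 exon 33 donor: CAGTCCACAGgtatatcgttaaccgcaccc
The windows span chr1:71660600-71660629 and chr1:71660317-71660346 for exon 25, and chr1:71650494-71650523 and chr1:71650214-71650243 for exon 33.

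Positions in the 45 *Fn1* introns numbered 3400 and 3096 in solvent and 1423 and 1676 in MS-275. The 2 introns beside exon 25 held 446 and 438 in solvent and 150 and 242 in MS-275. The 2 beside exon 33 held 957 and 831 in solvent and 452 and 504 in MS-275. Introns 41 and 42, toward the 3' end of the gene, held 944 and 1013 in solvent and 325 and 468 in MS-275. In these 6 introns the density was 30.5% and 30.8% of that on exons in solvent and 20.8% and 18.2% in MS-275, with p = 0.333 by the exact permutation test, the least that 2 against 2 can give. The other 39 introns together were at 2.53% and 2.03% in solvent and 2.05% and 1.28% in MS-275, but were not all sparse. Intron 39 held 216 and 173 positions per kb in solvent and 123 and 73.5 in MS-275. In solvent replicate 1 that was more than in intron 24 (188), beside exon 25, or intron 41 (199). Intron positions as a share of exon positions were thus lower in both MS-275 libraries than in both solvent libraries, and between 65.1% and 73.7% of them lay in these 6 introns in each of the 4 libraries.

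This measure was chosen after the data were seen. In limma on the log2 ratio of intron to exon positions over 7651 genes, *Fn1* changed by -0.60 (adjusted p = 1, or 0.00502 with the block, where 4.23% of genes were called lower). Corrected for filled positions, intron over exon was 39.8% and 37.8% in solvent and 31.2% and 22.8% in MS-275, a smaller log2 change in pair 1 (-0.35 against -0.47 uncorrected) and about the same in pair 2 (-0.73 against -0.74). Uncorrected, the share for *Fn1* was 49.0% and 46.4% in solvent and 35.3% and 27.8% in MS-275. Over all genes the uncorrected share, on exons and introns of a single gene, was 41.2% and 32.9% in solvent and 39.3% and 31.7% in MS-275. For single exons, density was taken over the exon length shortened by almost an alignment length, although alignments were assigned by their middle base. The percentages that follow depend on this shortening and were not corrected for filled positions. Exon 25 held 93.5% and 95.4% of the mean density of its neighbour exons in solvent and 70.2% and 78.1% in MS-275, and exon 33 held 82.0% and 88.5% in solvent and 69.4% and 75.9% in MS-275. Both exons were lower against their neighbours in MS-275, and exon 42 was too, at 100% and 103% in solvent and 83.1% and 97.2% in MS-275. Every deposited alignment spans 35 unbroken bases and none crosses a splice junction, so inclusion itself was not measured.

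**Figure D3:**
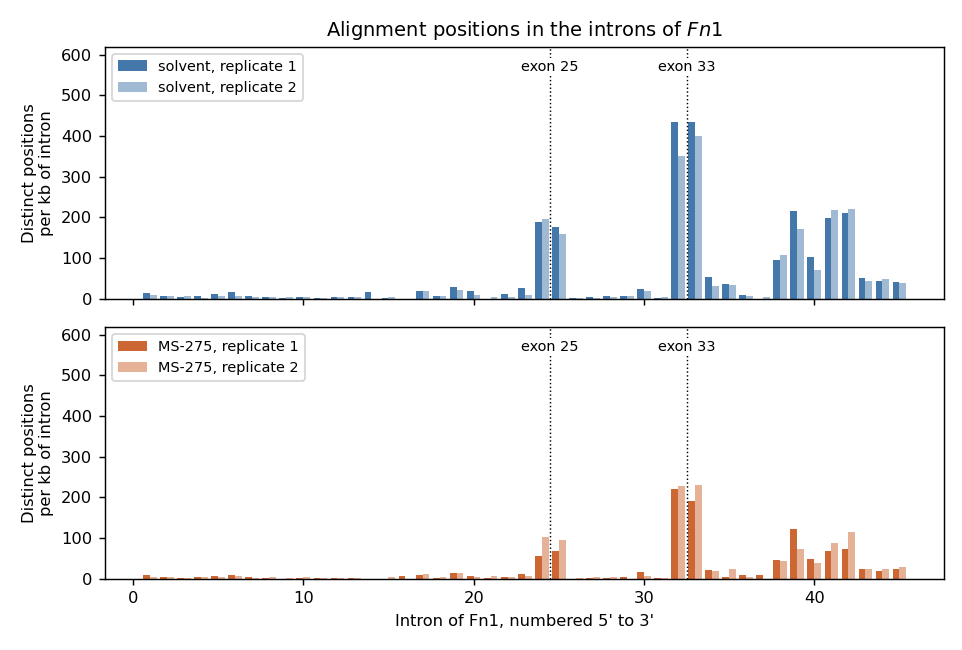
Distinct alignment positions per kb in each of the 45 introns of Fn1, numbered from the 5' end, in the solvent libraries (upper panel) and the MS-275 libraries (lower panel), with full colour for replicate 1 and pale colour for replicate 2. Bars stand on either side of exons 25 and 33 and in the 3' part of the gene in every library, and are lower in MS-275.

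The wider gene groups of EMT were described by counts in the blocked fit, since the fit without the block called 0 genes in each of the lists. The lists share some genes, such as those common to the neural crest and mesenchymal lists and to the fibroblast and mesenchymal lists. Shared genes were counted in each list, so the counts are not separate observations. Of 39 epithelial junction and identity genes tested, 10 rose and 4 fell, and the median log2 fold change was 0.19, against 0.197 over all genes, turning to -0.06 under quantile normalization and -0.08 under median-ratio scaling, where the median of all genes was -0.032 and -0.012. With quantile normalization and the block the split was 6 higher and 6 lower, against 14.4% and 14.6% of all genes. The keratin gene *Krt18* went from 0.0363 to 0.143 in mean value (log2 1.84, SE 0.445, limma adjusted p = 6.37e-05 with the block), and the desmosomal plaque gene *Pkp2* from 0.132 to 0.454 (log2 1.81). Among those that fell was the desmosomal cadherin gene *Dsg2* (log2 -0.85). Epithelial genes thus moved in both directions, at shares of 10 and 4 of 39 that lie near the 21% and 6.46% of the background.

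Of 36 mesenchymal and EMT-associated genes tested, 15 rose and 3 fell, against 21% and 6.46% of all genes. Their median was 0.43, against 0.197 over all genes. *Cnn1*, a smooth muscle calponin, went from 0.0127 to 0.105 in mean value (log2 2.64), and *Ctgf*, a matricellular growth factor gene, from 0.166 to 1.01 (log2 2.57). *Vcan*, a matrix proteoglycan gene, fell from 0.177 to 0.0206 (log2 -2.86), and *Mmp14*, a membrane-bound matrix protease gene, from 0.0472 to 0.0118 (log2 -1.64). *Snai3*, the remaining Snail-family gene, stood at 0.0349 and 0.00751 in solvent and 0.0801 and 0.0396 in MS-275 (log2 1.46, limma adjusted p = 0.00226 with the block). On the quantile-normalized scale the split of this list was 9 higher and 7 lower, against 14.4% and 14.6% of all genes.

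TGF-beta is the best-known inducer of EMT and of the Snail genes. Of 19 tested genes for its ligands, receptors, Smads and regulators, 3 rose and 6 fell, with a median of -0.11, against 21% and 6.46% of all genes. With quantile normalization 1 rose and 8 fell, against 14.4% and 14.6% of all genes. None of the ligand genes *Tgfb1*, *Tgfb2* and *Tgfb3* passed, with log2 fold changes between 0.26 and 0.42. *Tgfbr3*, a co-receptor gene, rose (log2 1.08), as did *Ltbp3*, which binds latent TGF-beta (log2 0.81). *Tgfbi*, a TGF-beta-induced matrix gene, fell from 0.148 to 0.0233 in mean value (log2 -2.46), and *Smad7*, an inhibitory Smad gene and a target of the pathway, from 0.248 to 0.107 (log2 -1.17). Among the 17 catenins and Snail or Zeb cofactors, 2 rose (*Ctnna2*, log2 1.79; *Btrc*, log2 0.64) and 2 fell (*Ctbp2*, a Zeb corepressor gene, log2 -1.33; *Ajuba*, a Snail corepressor gene, log2 -0.84), with a median of 0.08 that was -0.03 under quantile normalization, against the same 21% and 6.46%.

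Genes of the cell types that pass through an EMT in the embryo were also counted. Of 12 neural crest genes, 8 rose and 1 fell, against 21% and 6.46% of all genes, with a median of 1.05. *Sox8* went from 0.00333 to 0.0517 in mean value (log2 2.77), and *Tfap2b* from 0.00045 to 0.0265 (log2 2.44), while *Foxd3*, which ESC also express, fell from 0.0293 to 0.00386 (log2 -1.86). In solvent *Tfap2b* stood at 0.0009 and 0, below the minimum value for testing. It was tested through its MS-275 libraries alone, so it could only be called higher, and it is among the 8. *Pax3*, at 0 in both solvent libraries, was tested in the same way and did not pass. The background of all genes had the same filter, and its genes of this kind were not counted. Of 12 primitive streak and mesoderm genes, 5 rose and 0 fell, with a median of 0.65. Those that rose included brachyury (*T*), which went from 0.00526 to 0.0344 (log2 1.89), and *Kdr* (log2 1.79). With quantile normalization 5 rose and 1 fell, against 14.4% and 14.6% of all genes. In both pairs of libraries 11 of the 12 neural crest genes and 10 of the 12 primitive streak genes were higher, whether or not they passed, as were 10163 of the 20336 genes tested.

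Markers of other cells were counted too. Of 15 fibroblast markers 7 rose and 0 fell, against 21% and 6.46% of all genes. With quantile normalization 5 rose and 3 fell, against 14.4% and 14.6% of all genes. The summed value of the fibroblast markers was between 0.567 and 0.680 in solvent and between 1.02 and 1.19 in MS-275. Of the defining ones, none was listed at 0 in any library. *Col1a1* (log2 2.41), *Col1a2* (1.06), *Thy1* (0.91) and *Lum* (0.73) rose, and *Col3a1* (-0.52) and *Dcn* (-0.72) did not pass. Of 15 extraembryonic endoderm markers 4 rose and 0 fell, a share of risers near that of all genes, led by *Afp* (log2 1.37) and *Sox17* (1.33). With quantile normalization 2 rose and 1 fell, against the same 14.4% and 14.6%. The summed value of the endoderm markers was 1.17 and 0.604 in solvent and 1.32 and 0.551 in MS-275, so the groups overlapped. Of 12 ESC markers 0 rose and 5 fell, against 21% and 6.46% of all genes. The falls were led by *Fgf4* (log2 -1.56) and *Utf1* (-1.45), with the core factor *Pou5f1* at -0.95 and a list median of -0.65. All 12 were listed above 0 in every library, with *Pou5f1* between 0.575 and 2.33. The part of fibroblasts or endoderm in the rise of *Snai1* and *Snai2* was not tested.

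**Figure D4:**
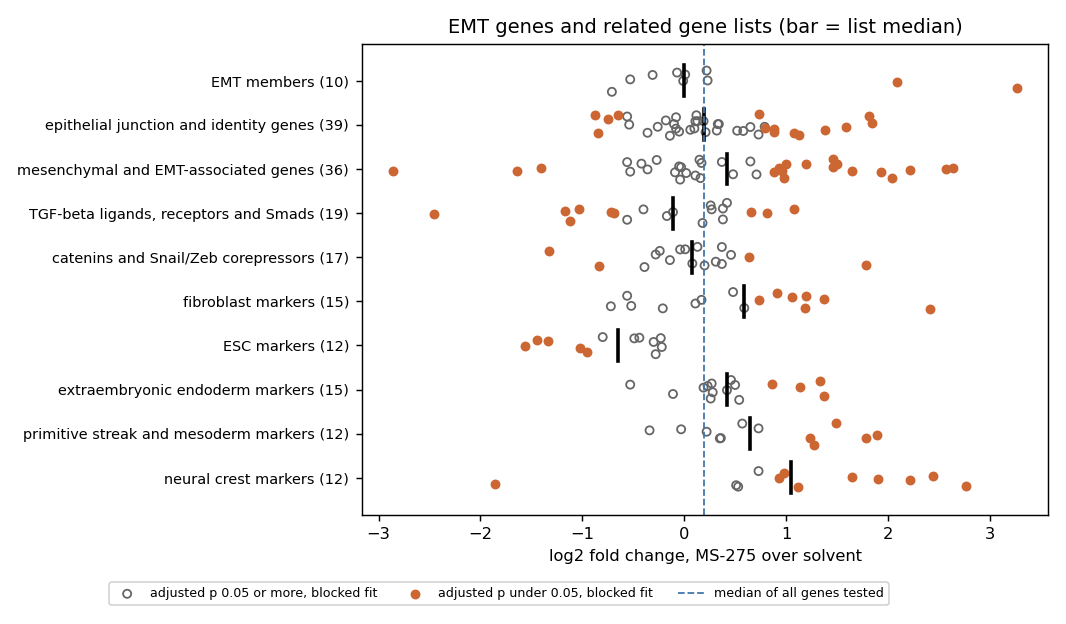
Log2 fold change of MS-275 over solvent (value scale) for each tested gene of the 10 lists, with the number tested in brackets. Filled points passed limma with the replicate block, black bars mark list medians between -0.65 and 1.05, and the dashed line marks the median of all genes at 0.197.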

How the data were processed

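Poly(A) RNA was sequenced in 4 libraries. Per the labels and the study's methods, the authors mapped the reads to mm9 and obtained normalized expression values with Genomatix. The aligner, its version and the formula are not given in the sources used here. The deposited value of a gene is a signal with no stated unit. The shorter deposited tables list nearly all genes at 0.001 or more and were used as an alternative, and the deposited alignments give a start, an end and a strand each. Tables of the authors' own ratios between conditions were not used. Depth is known for the alignments alone, at 5608253 to 7346036 distinct exon positions per library.

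Groups came from the titles, in which a duplicate is replicate 2. The 10 genes and the gene lists were chosen with earlier results of these data known. Genes at 0.001 or more in at least 2 libraries were tested with limma 3.58.1 (R 4.3.3, eBayes with a trend) on log2(value + 0.005), without and with the replicate number as a block. The headers of the values mark replicate 1 of both conditions alike, and same-numbered libraries deviated together (r = 0.764 over 20336 genes), so the blocked value is given beside results that it changes. The replicate number also goes with whether the matching alignments hold repeats. A shared deviation from repeat handling and one from paired cultures cannot be told apart, and r is no evidence of pairing. Blocked p-values and list counts rest on this block. The fold changes understate low genes. Distinct start positions, assigned by their middle base to exons of GENCODE M1 on NCBIM37 without strand, were tested with limma-voom (at least 10 positions in 2 libraries). Ratios of 2 genes were compared by exact permutation tests (scipy 1.17.1). Scripts were tested on simulated data. Genes named outside the 10 are, for each list, the 2 largest rises and 2 largest falls among those passing, the 3 nearest patterns, and defining markers. Of the genes this rule gives, 1 is not reported here. *Snai3*, the TGF-beta ligand genes, *Pou5f1* and the *Fn1* introns were picked after their values were seen.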

Additional observations from a re-analysis of the deposited data

How the results depend on the processing

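The count of the 10 genes called higher without the block was 0. It was 1 (*Snai1*) over genes with a mean value of at least 0.01, 2 on distinct positions, and between 0 and 1 with 1 library left out (1 without solvent replicate 1 and 1 without solvent replicate 2, 0 without either MS-275 library). With the replicate block it was 2 at each pseudocount, at a mean of at least 0.01, without a trend, with quantile normalization, median-ratio scaling, the shorter tables or distinct positions, and 0 without a filter. The blocked settings at other pseudocounts, at a mean of at least 0.01, without a trend and on the shorter tables called between 12.1% and 20.7% of all genes higher. The count called lower was 0. It was 1 (*Fn1*) on distinct positions and on the blocked median-ratio scale, 2 (*Fn1* and *Zeb2*) with the block on the quantile scale and on distinct positions, and 0 to 0 with 1 library left out. Directions turned for genes near 0. *Epcam* was -0.27 under median-ratio scaling with and without the block, *Vim* -0.05 under the same, *Twist1* -0.29 under quantile normalization with and without the block, and *Cdh2* 0.18 on positions, or 0.11 with the block. With 1 library left out, *Cdh1* ranged from -0.62 to 0.01, *Cdh2* from -0.32 to 0.30, *Epcam* from -0.21 to 0.23, *Vim* from -0.33 to 0.79 and *Zeb1* from -0.58 to 0.44, while *Snai1* (3.08 to 3.46), *Snai2* (1.83 to 2.34), *Twist1* (0.03 to 0.41), *Zeb2* (-0.87 to -0.19) and *Fn1* (-1.20 to -0.22) kept their direction. The *Cdh2* to *Cdh1* ratio difference was -0.36 under quantile normalization. Its range and that of *Vim* to *Epcam* with 1 library left out were -0.09 to 0.68 and -0.22 to 0.67. Under the 23 alternatives, 29 gene results passed that had not, 17 turned and 184 did neither. The cause of these shifts was not tested. Limits are the 2 libraries per group, the low position counts of *Cdh2*, *Twist1* and solvent *Snai1*, and filled positions in *Fn1* and *Cdh1*.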
